A study of Mus musculus with 6 samples.

Results

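The genes described here are 10 macrophage identity and polarization genes, taken by their symbols from a table of 26971 features of mouse kidney cortex. They were chosen by name in 3 sets: resident macrophage genes (Adgre1, Csf1r and Mrc1), injury-recruited macrophage genes (Arg1, Chil3 and Msr1) and genes of macrophages in general (Cd68, Lyz2, Fcgr1 and Ms4a7). Each symbol stood on 1 feature, and 9 of the 10 passed the filter on low counts, with Arg1 below it. The 6 libraries came from the cortex of male C57BL/6 mice 1 day after surgery, in groups of 3. The first group is labelled Cong_IRI, IRI with IVCC, and is called congested here after the series' own term renal congestion. The second is labelled CLK_IRI, with IRI as its treatment. IRI usually abbreviates ischaemia-reperfusion injury, a period without blood supply that ends when flow returns, and all 6 kidneys were labelled with it, so no uninjured kidney entered any comparison. The labels do not expand CLK or IVCC and do not state that samples were separate animals, so p-values cover the spread among these samples and no more.

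Macrophages of the kidney are of more than 1 origin. Resident macrophages lie along the tubules and capillaries and depend on the receptor Csf1r, whereas monocytes enter from the blood after ischaemia and become macrophages in the tissue. Infiltrating cells can take up a state with arginase 1 and the chitinase-like protein Ym1, products of Arg1 and Chil3, which in mice are the usual readouts of alternative activation. None of these genes belongs to 1 cell type alone. Neutrophils and monocytes also hold Lyz2 and Chil3, and in bulk tissue fewer cells of a type cannot be told apart from less RNA per cell.

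Total counts per library were 10865860 to 14350425. Principal component 1, computed on the 1000 genes that varied most, carried 68.2% of the variance and put replicate 1 of both groups at 41.8 and 39.6, with the other 4 libraries at -32.9 to -10.2. Markers of kidney cortex were found in every library, with Lrp2 at 619 to 1950 CPM (the usual scale of read counts relative to library size, here with edgeR's TMM factors). The macrophage markers C1qa and C1qb were also above 0 in all 6, at 11 to 21.4 CPM. Lymphocyte markers were close to the floor, and Cd3e had no read in 4 libraries.

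**Figure D1:**
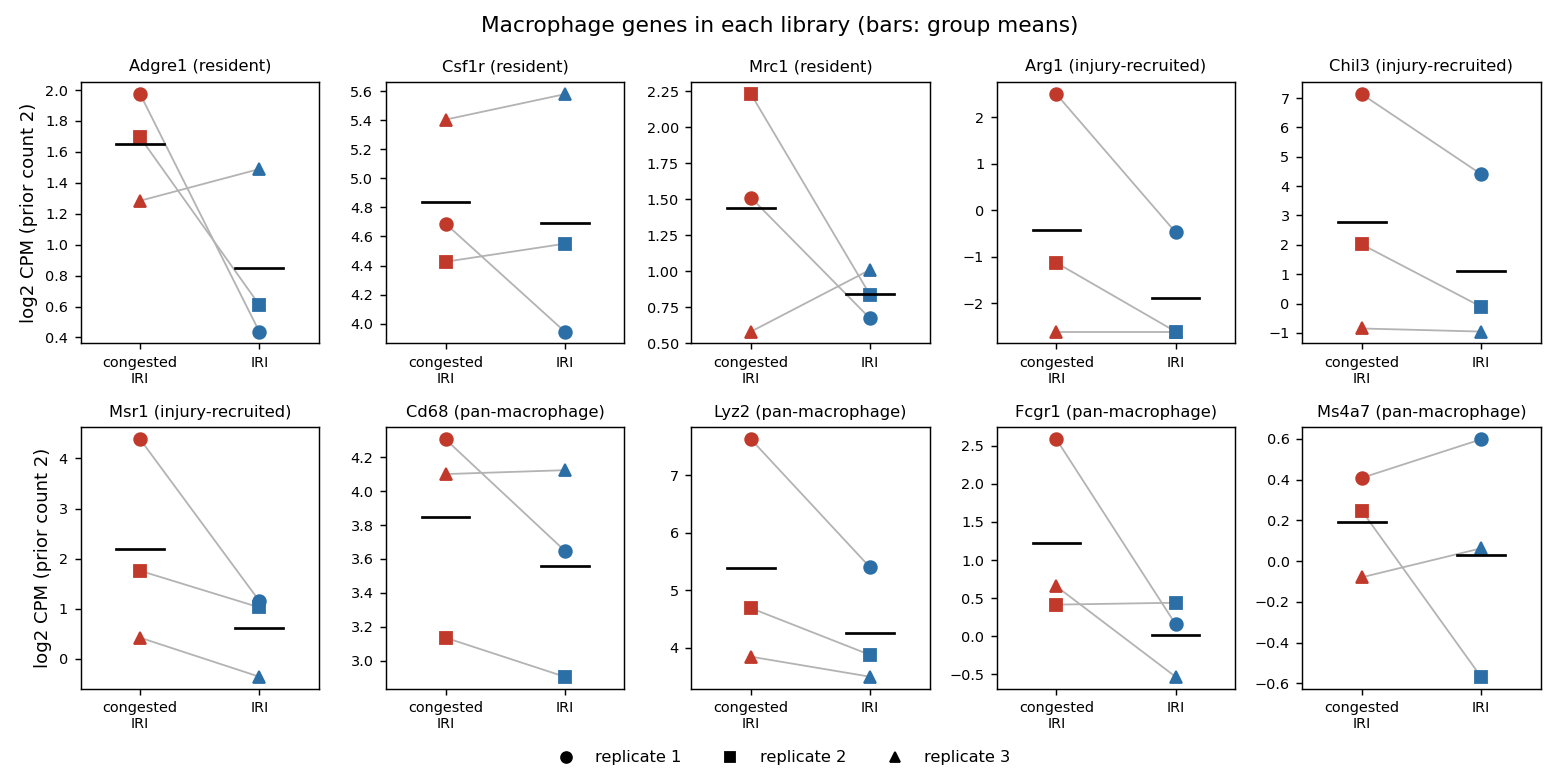
Level of the 10 genes in each library as log2 CPM (prior count 2), 1 panel a gene with its own axis, congested IRI left and IRI right. Points are libraries with a shape for each replicate number, lines join equal numbers, and bars are group means of the log2 values. Replicate 1 is the highest library of its group for Chil3, Lyz2, Msr1 and Arg1, and the third replicate for Csf1r.

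Compared per kilobase of exon, Lyz2 had the highest mean of the members in both groups and Ms4a7 was among the 2 lowest. In congested kidneys Lyz2, which encodes lysozyme 2, averaged 59.9 ± 77.7 CPM per kb, followed by Chil3 at 29.5 ± 48.8, Cd68 at 12 ± 4.57 and Csf1r at 5.15 ± 1.91 CPM per kb (SD, n = 3). In IRI kidneys Lyz2 had 17.1 ± 12.8 CPM per kb, followed by Cd68 at 9.81 ± 3.95, Csf1r at 4.97 ± 2.93 and Chil3 at 4.54 ± 7.27 CPM per kb (SD, n = 3). The ranges of these 4 genes overlapped in both groups, except that Lyz2 lay above Csf1r throughout. The other 6 genes averaged 0.222 to 1.32 CPM per kb in congested kidneys and 0.0831 to 0.535 CPM per kb in IRI kidneys, with overlapping neighbours.

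Chil3 and Lyz2 had the widest ranges of the members in CPM, and their promoters are printed with those of Mrc1, a resident gene, and Fcgr1, a general gene, for comparison. Promoters from RefSeq on GRCm38.p6 were used for 6 of the 10 genes, in windows of 250 bases before to 50 after the start. No promoter of Adgre1, Csf1r, Arg1 or Msr1 was used, so the member counts of binding-site letters below leave these genes out. Capitals mark GAGGAA, a core of binding sites of PU.1, the master regulator of myeloid cells, on either strand (TTCCTC on the strand printed).
Chil3, chr3:106167515-106167814, minus strand: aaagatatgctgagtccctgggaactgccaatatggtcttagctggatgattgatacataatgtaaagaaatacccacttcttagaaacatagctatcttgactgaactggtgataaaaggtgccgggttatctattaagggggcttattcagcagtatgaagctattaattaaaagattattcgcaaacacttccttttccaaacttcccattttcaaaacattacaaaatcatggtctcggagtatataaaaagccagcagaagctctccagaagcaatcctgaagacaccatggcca
Lyz2, chr10:117282223-117282522, minus strand: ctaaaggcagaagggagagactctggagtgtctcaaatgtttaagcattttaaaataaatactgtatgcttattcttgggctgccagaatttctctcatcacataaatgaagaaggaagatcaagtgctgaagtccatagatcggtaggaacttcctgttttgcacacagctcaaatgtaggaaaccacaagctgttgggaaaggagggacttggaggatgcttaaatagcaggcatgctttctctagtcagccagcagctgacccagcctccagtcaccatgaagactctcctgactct
Mrc1, chr2:14229164-14229463, plus strand: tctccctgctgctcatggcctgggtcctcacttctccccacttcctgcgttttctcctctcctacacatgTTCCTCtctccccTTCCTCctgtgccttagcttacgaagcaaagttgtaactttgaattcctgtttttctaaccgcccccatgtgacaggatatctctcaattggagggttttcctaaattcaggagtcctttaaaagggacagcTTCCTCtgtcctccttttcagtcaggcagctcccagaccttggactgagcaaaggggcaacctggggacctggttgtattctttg
Fcgr1, chr3:96293920-96294219, minus strand: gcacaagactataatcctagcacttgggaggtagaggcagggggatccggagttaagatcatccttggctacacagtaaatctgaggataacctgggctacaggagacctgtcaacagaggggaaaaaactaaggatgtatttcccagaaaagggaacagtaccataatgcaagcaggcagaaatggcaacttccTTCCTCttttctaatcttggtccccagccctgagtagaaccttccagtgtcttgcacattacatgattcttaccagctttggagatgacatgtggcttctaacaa
The letters GAGGAA occurred in 4 of the 7 member promoters (Mrc1, Cd68, Fcgr1 and 1 of the 2 of Ms4a7), against 28.3% of all 32851 promoters in the table. TTGCNNAA, a form of the C/EBP site, occurred in 1 of 7, that of Cd68, against 10.8%. TTC and GAA with any 4 bases between them, a form of the STAT6 site, occurred in 1 of 7, that of Ms4a7, against 6.95%. Both strands were searched, and the STAT6 form reads the same on both. None of these 3 strings stands in the Chil3 or Lyz2 window, which says only that these letters are not there.

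Within each replicate number, Chil3, Msr1 and Lyz2 had more CPM in the congested than in the IRI kidney, by 1.11-fold to 10-fold. The resident genes Adgre1, Csf1r and Mrc1 were higher in the congested kidney of some numbers and lower in others, by ratios of 0.72 to 3.16. No member passed the test of congested against IRI kidneys over all genes. With edgeR's quasi-likelihood test and Benjamini-Hochberg adjustment, 0 of 14274 genes reached an adjusted p under 0.05 (0%), and the smallest adjusted p was 0.933. The replicate number as a block also gave 0 calls (0%), with a smallest adjusted p of 0.577. At an unadjusted p under 0.05 without the block, 285 genes passed, 141 of them higher in congested kidneys (0.988%), and among the 9 members Msr1 was 1 of these. With the block, 582 genes were higher at that level (4.08%), and 4 of the 9 members were among them: Chil3, Msr1, Lyz2 and Fcgr1. DESeq2 with the block called 8 genes (0.056%), of which Chil3 was the 1 member, while limma-voom with the block called 0 (Chil3 adjusted p = 0.567). Without the block, DESeq2 and limma-voom called 0, but DESeq2 gave Chil3 no adjusted p there.

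Chil3 encodes the chitinase-like protein Ym1 and varied widely over the libraries. It had 140.1, 3.87 and 0.392 CPM in congested replicates 1, 2 and 3, against 21.1, 0.767 and 0.352 CPM in IRI replicates 1, 2 and 3. These values rested on 1564, 53 and 5 reads in congested libraries and 266, 9 and 4 reads in IRI libraries. Each congested library exceeded the IRI library of its number, by 6.63-fold, 5.05-fold and 1.11-fold for replicates 1, 2 and 3, but the groups overlapped. The third ratio lay within counting error, since the 95% Clopper-Pearson intervals were 0.127 to 0.914 CPM in the congested library and 0.096 to 0.902 CPM in the IRI library. Such intervals cover counting error only.

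The group means of Chil3 were 48.1 ± 79.7 CPM in congested kidneys and 7.41 ± 11.9 CPM in IRI kidneys (SD, n = 3). edgeR's quasi-likelihood test gave a log2 fold change of 2.69 (SE 1.96, adjusted p = 0.933), and 2.40 (SE 0.37, adjusted p = 0.577) with the replicate block. DESeq2 with the block gave 2.26 (SE 0.43, adjusted p = 8.01e-04). Leaving out congested replicate 1 without the block turned the edgeR value to -1.81, in a fit that kept IRI replicate 1, at 21.1 CPM. With replicate 1 left out of both groups, Chil3 had no fitted value. Of the 75-base stretches of its transcript, 208 of 1465 (14.2%) also occur in Chil4 or Gm6522, so its reads could have been divided among these, although Chil4 itself had at most 2 reads in any library.

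Msr1, the class A scavenger receptor that takes up modified lipoproteins, was also higher in congested kidneys within every replicate number. It had 20.7, 3.22 and 1.17 CPM in congested replicates 1, 2 and 3, against 2.06, 1.87 and 0.617 CPM in IRI replicates 1, 2 and 3. These rested on 231, 44 and 15 reads in congested libraries and 26, 22 and 7 reads in IRI libraries. The 95% Clopper-Pearson intervals of congested and IRI libraries overlapped in numbers 2 and 3 but not in number 1. Congested replicate 1 stood above all other libraries, and congested replicate 3 lay within the IRI range. The log2 fold change was 2.44 (SE 1.03, unadjusted p = 0.0466, adjusted p = 0.933 by edgeR's quasi-likelihood test). Without congested replicate 1 it was 0.52, and with replicate 1 left out of both groups and no block 0.82. The replicate block gave 1.89 (SE 0.54, edgeR adjusted p = 0.577).

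Arg1, the liver-type arginase that competes for the substrate of nitric oxide synthase, was at the edge of detection. It had 61, 4 and 0 reads in congested replicates 1, 2 and 3, against 7, 0 and 0 reads in IRI replicates 1, 2 and 3. In CPM these were 5.46, 0.292 and 0 in congested libraries and 0.556, 0 and 0 in IRI libraries. Reads were thus concentrated in replicate 1 of both groups, where the congested library was 9.83-fold higher, and in the 3 libraries at 0 the floor of 3 reads allows up to 0.235 to 0.264 CPM. Having failed the filter, Arg1 had no adjusted p in the tests above. With no filter it had an edgeR log2 fold change of 3.24 (SE 2.24, adjusted p = 0.822) without the block and 3.34 (SE 0.73, adjusted p = 0.00279) with it, fitted values that rest on groups with libraries at 0.

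Its paralog Arg2, the mitochondrial arginase, was far more abundant. Arg2 averaged 81.8 ± 41.6 CPM in congested kidneys and 85.6 ± 30.7 CPM in IRI kidneys (SD, n = 3), with a log2 fold change of -0.07 (SE 0.46, edgeR adjusted p = 0.981).

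**Figure D2:**
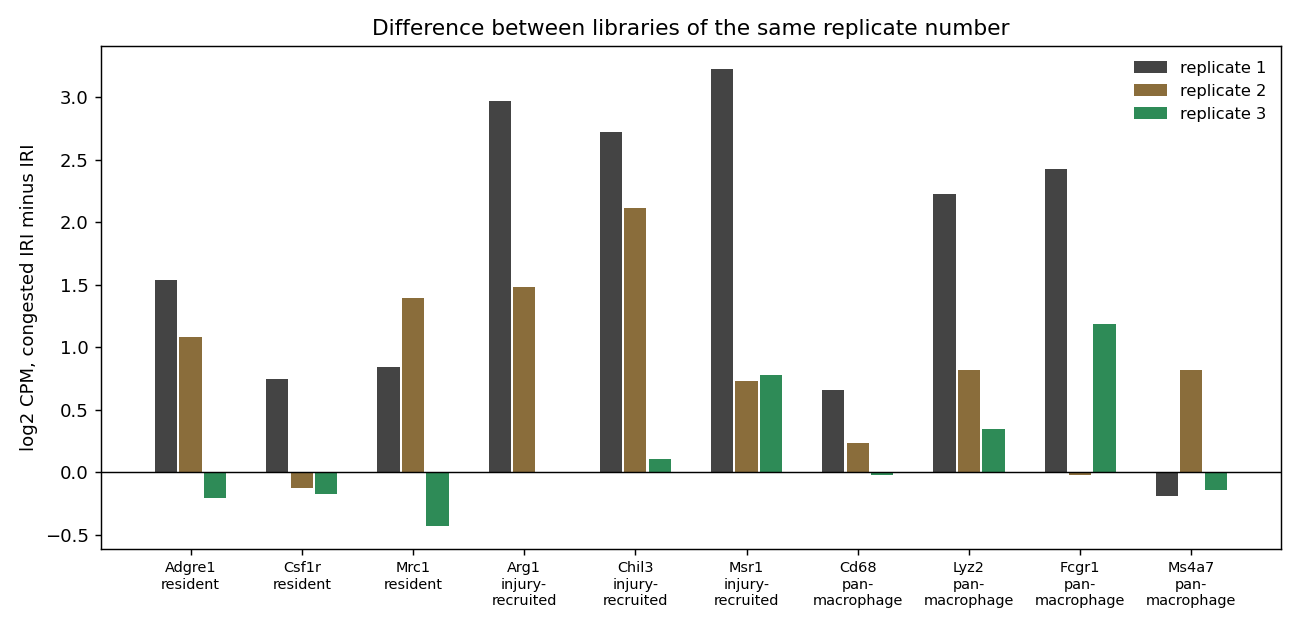
Difference in log2 CPM, congested minus IRI, between libraries of the same replicate number, 1 bar per number and gene. Chil3, Msr1 and Lyz2 have 3 bars above 0, and the bars of Csf1r and Cd68 run from -0.175 to 0.743.

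The general macrophage genes ran from Ms4a7, with a log2 fold change of 0.11, to Lyz2, with 1.81. Lyz2 had 196.8, 25.6 and 14.2 CPM in congested replicates 1, 2 and 3, against 41.9, 14.5 and 11.1 CPM in IRI replicates 1, 2 and 3. Lyz2 was 4.69-fold, 1.77-fold and 1.28-fold higher in the congested library of each number, with overlapping groups. Its log2 fold change was 1.81 (SE 1.00, edgeR adjusted p = 0.933), and -0.19 without congested replicate 1, a fit that kept IRI replicate 1. With replicate 1 left out of both groups and no block, it was 0.64. The replicate block gave 1.17 (SE 0.35, edgeR adjusted p = 0.577). Its transcript shares 74 of 1242 stretches of 75 bases (5.96%) with Lyz1, which had at most 5 reads in a library.

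Fcgr1, the high-affinity receptor for IgG, had 5.82, 1.17 and 1.41 CPM in congested replicates 1, 2 and 3. It had 0.953, 1.19 and 0.529 CPM in IRI replicates 1, 2 and 3. Congested replicate 2 lay just below the highest IRI library, so that the groups overlapped by 1 pair of values. The log2 fold change was 1.63 (SE 0.71, unadjusted p = 0.0532, edgeR adjusted p = 0.933), and 0.52 without congested replicate 1. With replicate 1 left out of both groups and no block, it was 0.575. Scaled to total counts, with no TMM factors, the groups of Fcgr1 no longer overlapped.

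Cd68, a lysosomal glycoprotein of phagocytes, had 19.6, 8.62 and 17 CPM in congested replicates 1, 2 and 3, against 12.4, 7.33 and 17.3 CPM in IRI replicates 1, 2 and 3. Replicate 2 was the lowest library of both groups. Its log2 fold change was 0.29 (SE 0.41, edgeR adjusted p = 0.935), and ran from 0.02 without IRI replicate 2 to 0.61 without IRI replicate 3. Ms4a7, a membrane protein of the MS4A family found in macrophages, had 1.16, 1.02 and 0.783 CPM in congested libraries, against 1.35, 0.511 and 0.881 CPM in IRI libraries. These rested on 6 to 17 reads each, and the log2 fold change was 0.11 (SE 0.47, edgeR adjusted p = 0.970).

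On the log2 scale, the mean of the resident genes spanned 1.69 to 2.78 over the libraries and that of the recruited genes -1.31 to 4.67. Adgre1, which encodes F4/80, the classical surface marker of mouse macrophages, had 3.76, 3.07 and 2.27 CPM in congested replicates 1, 2 and 3, against 1.19, 1.36 and 2.64 CPM in IRI replicates 1, 2 and 3. In numbers 1 and 2 Adgre1 was higher in the congested library and in number 3 lower, on 15 to 42 reads per library. The log2 fold change was 0.81 (SE 0.42, unadjusted p = 0.0962, edgeR adjusted p = 0.933), and 1.24 without IRI replicate 3.

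Mrc1, the mannose receptor CD206, had 2.69, 4.53 and 1.33 CPM in congested replicates 1, 2 and 3, against 1.43, 1.62 and 1.85 CPM in IRI replicates 1, 2 and 3. As for Adgre1, number 3 ran the other way, and congested replicate 3 was the lowest of all 6 libraries. The log2 fold change was 0.80 (SE 0.48, edgeR adjusted p = 0.933), and 0.29 without congested replicate 2.

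Csf1r, the receptor for the survival factors Csf1 and Il34, was the most abundant resident gene. It had 25.6, 21.3 and 42.2 CPM in congested replicates 1, 2 and 3, against 15.2, 23.3 and 47.7 CPM in IRI replicates 1, 2 and 3. The highest library of both groups was replicate 3. In numbers 2 and 3 the congested library was the lower one. The log2 fold change was 0.05 (SE 0.45, edgeR adjusted p = 0.983). In the GENCODE M21 annotation, 873 bases of its exons (15.1%) overlap the antisense gene Hmgxb3, and since the strand setting of the counting is not given in the sources used here, whether the counting kept the reads of the pair apart is not known. The exons of the other 9 members overlap no other gene.

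**Figure D3:**
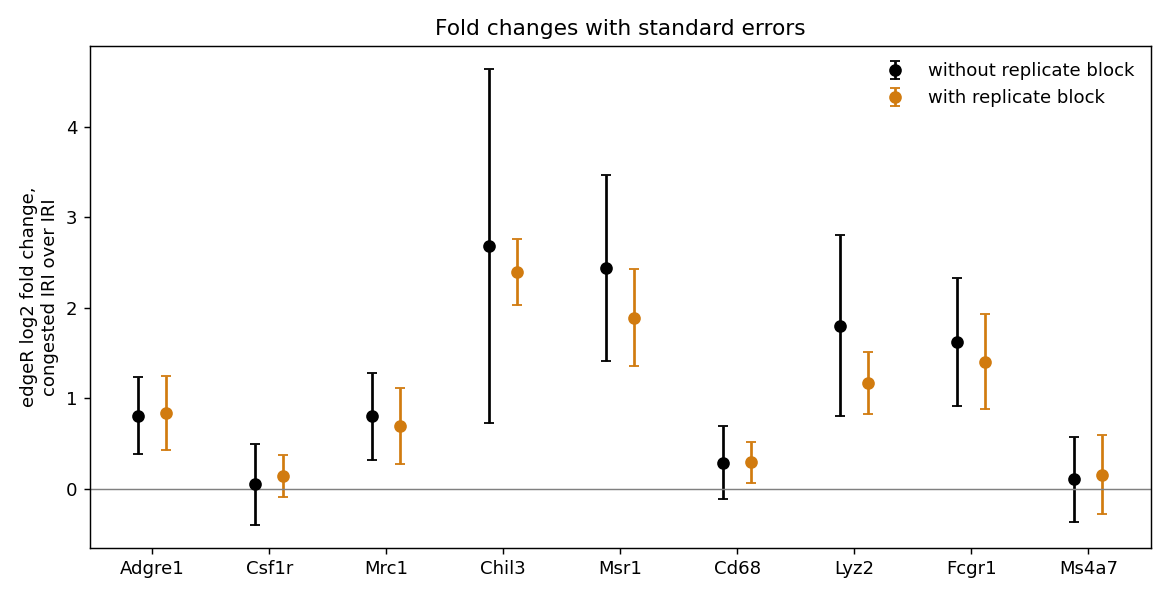
edgeR log2 fold changes, congested over IRI, of the 9 members that passed the filter, with bars of 1 SE, in the fit without the block on replicate number and in the fit with it. For Chil3 the SE is 1.96 without the block and 0.37 with it, and the value changes less, at 2.69 and 2.40.

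Counted over the members, 0 of 9 had groups that did not overlap with congested kidneys higher, against 488 of 14274 genes (3.42%). Higher in the congested library within all 3 numbers were 3 of 9, Chil3, Msr1 and Lyz2, against 1866 of 14274 genes (13.1%). The same 3 were higher within numbers 2 and 3, against 2727 genes (19.1%). In number 3 the 95% Clopper-Pearson intervals of the congested and the IRI library overlapped for each of these 3 genes. All 9 edgeR log2 fold changes were above 0, against 7082 of 14274 genes with a median of -0.005. The 9 include genes that shared the high replicate 1, so they are not 9 separate observations.

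The recruited genes were set against the resident genes as the mean log2 CPM of Arg1, Chil3 and Msr1 minus that of Adgre1, Csf1r and Mrc1, with a prior count of 2. This difference was 1.95, -1.90 and -3.44 in congested replicates 1, 2 and 3, against 0.01, -2.56 and -4.00 in IRI replicates 1, 2 and 3. It was higher in the congested library of every number, by 1.93, 0.66 and 0.56, yet the groups overlapped. The means were -1.13 ± 2.77 in congested kidneys and -2.18 ± 2.03 in IRI kidneys (SD, n = 3), a difference of 1.05 that was smaller than the spread within each group. Taken within numbers, the same 1.05 had an SD of 0.77 (n = 3). No test was made of this chosen score. With replicate 1 left out of both groups the difference was 0.61. Leaving out single libraries, which breaks the balance of numbers, gave -0.49 without congested replicate 1 and 2.20 without congested replicate 3. For IRI it gave 2.15 with replicate 1 left out and 0.14 with replicate 3 left out.

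Both parts of the score contributed unequally. The recruited mean was higher in the congested library by 2.97, 1.44 and 0.29 (log2 CPM) in numbers 1, 2 and 3. The resident mean was higher by 1.04 and 0.79 in numbers 1 and 2 and lower in number 3, at -0.27. In number 3, therefore, the 0.56 came from a recruited mean 0.29 higher together with a resident mean 0.27 lower.

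**Figure D4:**
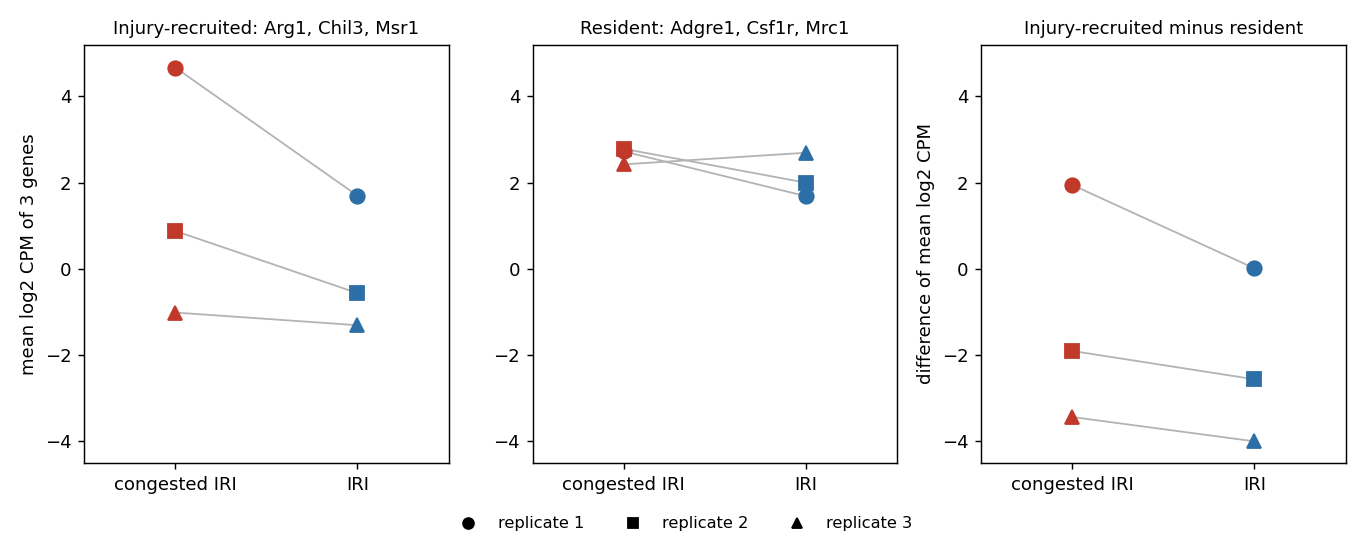
Mean log2 CPM of the 3 injury-recruited genes and of the 3 resident genes in each library, congested IRI left and IRI right, and their difference, with a shape for each replicate number and lines joining equal numbers. The recruited mean runs from -1.31 to 4.67 over the 6 libraries and the resident mean from 1.69 to 2.78.

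As a share of the summed CPM of all 10 members, the recruited genes held 39.4%, 10.2% and 1.94% in congested replicates 1, 2 and 3, against 24.2%, 5.04% and 1.17% in IRI replicates 1, 2 and 3. The resident genes held 7.6%, 39.8% and 56.7% in congested libraries, against 18.2%, 50.1% and 62.9% in IRI libraries. Lyz2 and Chil3 together held 79.9% in congested replicate 1 and 13.8% in IRI replicate 3, the ends of their range. These shares set the same genes against one another, so a gain of one set lowers the share of the next.

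Members also differed by replicate number. edgeR's quasi-likelihood test of the replicate-number terms called 1144 of 14274 genes (8.01%), and 3 of the 9 members were among them. These were Chil3 (adjusted p = 0.00122), Lyz2 (adjusted p = 0.0105) and Msr1 (adjusted p = 0.0413). Chil3 averaged 80.6 CPM over the 2 libraries numbered 1, 2.32 CPM over those numbered 2 and 0.372 CPM over those numbered 3. Csf1r missed the threshold at an adjusted p of 0.0588 and Cd68 at 0.0719 in the same edgeR test, while Adgre1, Mrc1 and Ms4a7 were at 0.526 to 0.929. Of 14 alternatives, Chil3 was called for the replicate number in 14, Lyz2 in 12, Msr1 in 9, Csf1r in 7, Cd68 in 5, Fcgr1 in 3 and Mrc1 in 1. Adgre1 and Ms4a7 were called in 0. Arg1, which failed the filter, was not counted in these alternatives. With no filter, edgeR's test of the replicate-number terms gave Arg1 an adjusted p of 8.94e-13. The labels do not say what a shared number stands for, and whether it marks an animal, a day or a batch was not tested.

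Neutrophil markers were also highest in replicate 1 of both groups. The summed CPM of 10 measured neutrophil markers was 225.8, 16.5 and 8.14 in congested replicates 1, 2 and 3, against 75.2, 9.03 and 5.11 in IRI replicates 1, 2 and 3. That order of libraries is the same as for Chil3. None of the 4 defining neutrophil markers, S100a8, S100a9, Csf3r and Cxcr2, was at 0 in any library, and DESeq2 with the replicate block also called S100a8, with a log2 fold change of 1.39 (SE 0.33, adjusted p = 0.0411). Ptprc, the common leukocyte antigen CD45, had 19.4, 9.65 and 4.93 CPM in congested libraries, against 5.72, 4.86 and 5.82 CPM in IRI libraries, and so was raised in congested but not in IRI replicate 1. The sums of dendritic cell and lymphocyte markers in replicate 1 were 63.2 and 1.52 CPM in congested and 52.8 and 1.11 CPM in IRI kidneys, the lowest of each group. Dpp4, which tubules also express, made 55.9 and 41.9 CPM of these dendritic cell sums in congested and IRI kidneys. Zbtb46 had 5.11, 6.07 and 5.80 CPM in congested replicates 1, 2 and 3, against 6.83, 4.69 and 5.29 CPM in IRI replicates 1, 2 and 3. Lymphocyte markers were close to the floor. Tubular injury genes summed to 10750 to 64280 CPM in congested kidneys and 6165 to 47030 CPM in IRI kidneys, with replicate 1 the highest of both groups. Spp1, osteopontin, alone made 59190 of the 64280 CPM of congested replicate 1. The other 7 injury genes summed to 5084, 2758 and 1967 CPM in congested replicates 1, 2 and 3, against 6835, 2486 and 1383 CPM in IRI replicates 1, 2 and 3, so that replicate 1 was still the highest but IRI exceeded congested there. Genes of kidney cortex segments summed to 3071, 7935 and 10670 CPM in congested libraries, against 3108, 10240 and 10680 CPM in IRI libraries, lowest in replicate 1. Called for the replicate number were 7 of these 10, 7 of 8 tubular injury genes and 5 of 5 tested neutrophil markers. Among tested dendritic cell and lymphocyte markers it was 0 of 5 and 1 of 1, against 1144 of 14274 genes (8.01%) over all. The part of these cells, of injury severity and of tubule genes in the values of Chil3, Lyz2, Msr1 and Arg1 was not tested.

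**Figure D5:**
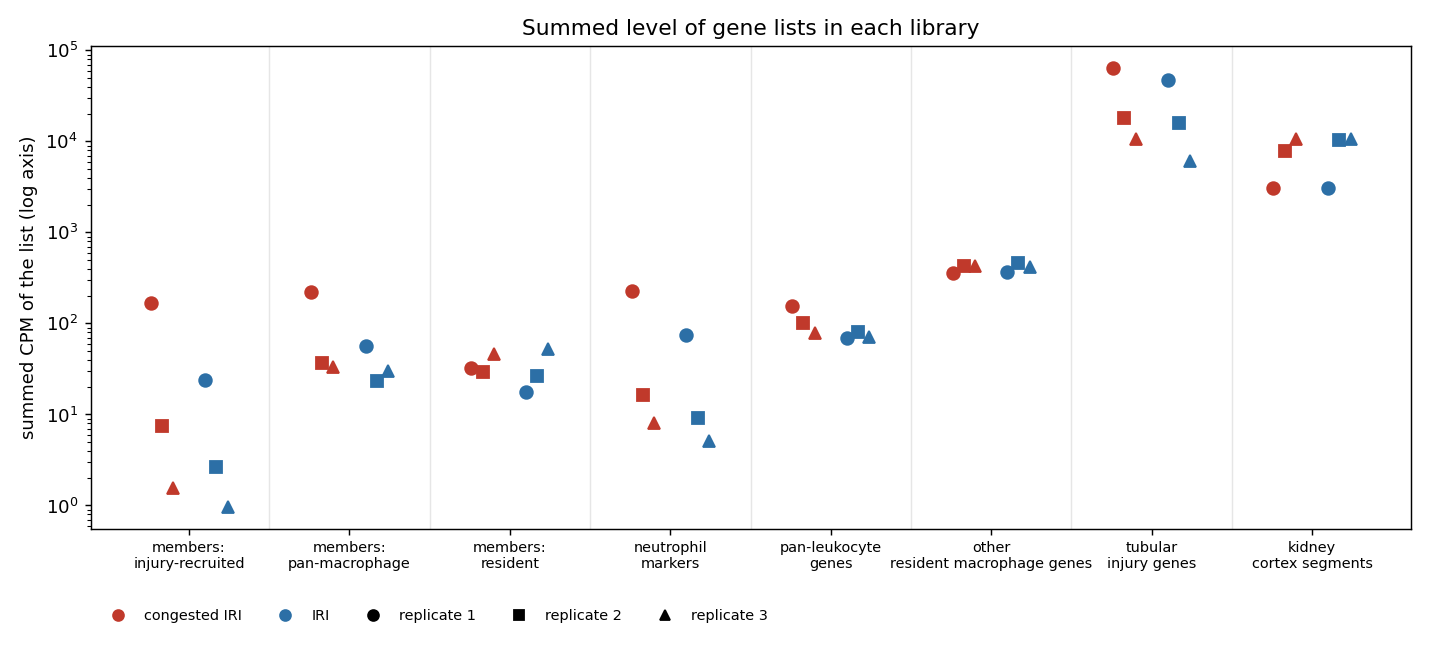
Summed CPM, on a log axis, of the resident and recruited members and of marker lists in each library, congested IRI left and IRI right, with a shape for each replicate number. Recruited members, from 0.969 to 166.2 CPM, and neutrophil markers, from 5.11 to 225.8 CPM, are both highest in congested replicate 1 and then in IRI replicate 1.

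In other lists of the macrophage lineage, 0 genes were called with or without the block by edgeR, so only levels and counts are given. Of 12 other resident genes 6 were tested, 3 with a log2 fold change above 0 and a median of 0.00. The complement genes C1qa and C1qb, which tissue macrophages express, were the 2 named by the rule. C1qa averaged 12.6 ± 1.56 CPM in congested kidneys and 14.6 ± 5.14 CPM in IRI kidneys, and C1qb 14.4 ± 1.05 CPM in congested and 16.2 ± 4.61 CPM in IRI kidneys (SD, n = 3). Their log2 fold changes were -0.21 (SE 0.29) and -0.17 (SE 0.25).

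Monocyte genes had 9 of 10 tested above 0, with a median log2 fold change of 1.18, against a median of -0.005 over all tested genes. Fn1, fibronectin, which many kidney cells also make, had 40.8, 45.8 and 40.3 CPM in congested libraries, against 13.5, 28.6 and 27.0 CPM in IRI libraries, and its groups did not overlap (log2 fold change 0.88, SE 0.30, edgeR adjusted p = 0.933). Thbs1, thrombospondin 1, had 140.4, 92.7 and 110.4 CPM in congested libraries, against 75.1, 56.0 and 72.5 CPM in IRI libraries (0.76, SE 0.24, edgeR adjusted p = 0.933). These 2 of 10 did not overlap, a pattern that 3.42% of all tested genes showed with congested kidneys higher.

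Polarization genes beyond Arg1, Chil3 and Mrc1 were sparsely measured. Of 12 genes of alternative activation, 3 passed the filter, all above 0 with a median log2 fold change of 0.24. Among them Tgm2, a transglutaminase, was at 0.29 (SE 0.24) and Egr2, a transcription factor, at 0.24 (SE 0.60). Of 12 genes of classical activation 5 passed, 4 of them above 0 with a median of 0.47. Il1b, the cytokine interleukin-1 beta, had 7.79, 2.12 and 0.862 CPM in congested libraries, against 2.62, 0.767 and 0.352 CPM in IRI libraries (1.5, SE 0.94). Cxcl10, a chemokine induced by interferon, was at 0.98 (SE 0.53).

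Growth factors and their receptors had 4 of 6 tested genes above 0, with a median log2 fold change of 0.26. Csf1, a ligand of Csf1r, averaged 30.6 ± 9.11 CPM in congested kidneys and 23.3 ± 8.48 CPM in IRI kidneys (SD, n = 3), and Csf2ra, a chain of the GM-CSF receptor, was at 0.42 (SE 0.31). Among 10 transcription factors, 6 were above 0. Spi1, which encodes PU.1, averaged 3.35 ± 1.13 CPM in congested and 2.23 ± 0.268 CPM in IRI kidneys (SD, n = 3).

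The list of Fc receptors and adaptors, which also holds Sirpa and Clec7a, had 8 of 8 tested genes above 0, with a median of 0.63. Its values ran from 0.05 for Fcgr2b to 1.35 for Tyrobp. Syk, the kinase downstream of these receptors, had 4.39, 2.19 and 1.49 CPM in congested libraries, against 1.35, 1.28 and 0.617 CPM in IRI libraries, without overlap (1.30, SE 0.53, edgeR adjusted p = 0.933). Tyrobp, the adaptor DAP12, had 29.3, 7.97 and 4.93 CPM in congested libraries, against 6.43, 6.39 and 3.70 CPM in IRI libraries, with overlap. Scavenger and lysosomal genes, the company of Msr1 and Cd68, had 8 of 11 above 0 and a median of 0.10. Stab1, a scavenger receptor of macrophages and sinusoidal endothelium, was at 0.62 (SE 0.28) and Gpnmb, a glycoprotein of lipid-laden macrophages, at 1.65 (SE 0.72), both without overlap and with an edgeR adjusted p of 0.933. Syk, Stab1 and Gpnmb share this lack of overlap with the same 3.42% of all tested genes.

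Lists of other leukocytes were tested in the same fit. All 8 pan-leukocyte genes were above 0, with a median of 0.52, Ptprc at 1.05 (SE 0.48) and Cd53 at 1.93 (SE 0.93). All 5 tested neutrophil markers were above 0, with a median of 1.73, Csf3r at 2.30 (SE 1.17) and Mmp9 at 2.10 (SE 1.25). Of 5 tested dendritic cell markers 2 were above 0, with Batf3 at -0.61 (SE 0.80) and Dpp4, which tubules also express, at 0.20 (SE 0.40). Only 1 of 12 lymphocyte markers was tested, Cd8a at -0.42 (SE 1.02), and 0 of 8 mast cell and basophil markers.

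Lists of kidney and blood genes were read in that fit too. Erythroid genes had 1 of 6 above 0 and a median of -0.27, with Hba-a2 at -0.42 (SE 0.40) and Alas2 at 0.75 (SE 0.59). Kidney segment genes had 5 of 10 above 0 and a median of -0.07, with Cyp7b1 at -0.86 (SE 0.85) and Aqp2 at -0.77 (SE 0.61). Tubular injury genes had 2 of 8 above 0 and a median of -0.17, with Spp1 at 0.51 (SE 0.91) and Krt18 at -0.28 (SE 0.54). With the replicate block the same list had 5 of 8 above 0 and a median of 0.14, so its direction depended on the block. Of the paralogs of the members 4 were tested, among them Ms4a6d, a relative of Ms4a7, which had 15.8, 2.27 and 1.02 CPM in congested libraries, against 2.38, 0.682 and 0.881 CPM in IRI libraries (2.25, SE 1.03, edgeR adjusted p = 0.933).

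The genes most like each set over the 6 libraries were ranked among 13828 genes by Pearson's r of log2 CPM, as a description over libraries that share the high replicate 1. Most like the recruited mean were F13a1 (r = 0.996), Lancl2 (0.989), Csf3r (0.987), Gm11827 (0.986) and Rdh10 (0.986). F13a1, the coagulation factor XIII A chain of monocytes and macrophages, had 12.3, 2.05 and 0.627 CPM in congested libraries, against 2.86, 0.767 and 0.705 CPM in IRI libraries. Most like the resident mean were Bcl2l13 (r = 0.999), Exoc2 (0.997), Rad21 (0.996), Gfpt1 (0.995) and Zc3h11a (0.995). Bcl2l13 had 61.4, 63.7 and 53.6 CPM in congested libraries, against 39.1, 43.8 and 60.8 CPM in IRI libraries, so it followed the resident mean in its low IRI replicates 1 and 2.

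The 10 genes lie on 8 chromosomes of GRCm38 in the GENCODE M21 annotation, and all are protein-coding. Adgre1 spans chromosome 17 from 57358691 to 57483527, Csf1r chromosome 18 from 61100598 to 61132149 and Mrc1 chromosome 2 from 14229392 to 14332057, all on the plus strand. On the minus strand Arg1 spans chromosome 10 from 24915221 to 24927484, and Lyz2 lies on the same chromosome from 117277331 to 117282321. Chil3 spans chromosome 3 from 106147554 to 106167564, and Fcgr1 lies on the same chromosome from 96282909 to 96293969. Msr1 spans chromosome 8 from 39581685 to 39642673, Cd68 chromosome 11 from 69664213 to 69666153 and Ms4a7 chromosome 19 from 11321039 to 11336146, all on the minus strand.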

How the data were processed

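The labels describe male C57BL/6 kidney cortex RNA, sequenced after a stranded preparation that selects polyadenylated RNA. The values of the deposited table are raw counts: whole numbers for each gene and library, with no scaling applied. STAR 2.7.10a, featureCounts, Subread and GRCm38 are named in the submitters' processing notes without their roles. Annotation, strand setting and treatment of multimapping reads are not stated in the sources used here, which bears on Chil3, Lyz2 and Csf1r.

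The members, the other gene lists and the rule for naming genes were chosen with earlier results of these data known. The rule named all 10 members, up to 3 called genes of each other list (where it had no called gene, the 2 of lowest p), and the 5 genes most like the resident and the recruited set among those with a mean of at least 1 CPM. S100a8 and Gm6522 and the marker genes are named outside that rule, and 1 gene that it named is not reported here.

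The test was that of edgeR 4.0.16, run in R 4.3.3 (TMM factors, filterByExpr with a minimum count of 10 and a minimum total of 15, robust quasi-likelihood F test). Benjamini-Hochberg adjustment ran over 14274 genes, with a threshold of 0.05. Each SE of an edgeR value was derived from the test, as the absolute log2 fold change divided by the square root of its F statistic. Symbols on more than 1 feature numbered 20 and were kept apart. The floor for a count of 0 was 3 reads per library. No pair of replicates matched within sampling noise. Alternatives were DESeq2 1.42.0, limma-voom (limma 3.58.1), other scaling and filters, the replicate block and libraries left out, and the fit was tested on simulated data.

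Replicates are numbered 1 to 3 in both groups, and the labels do not say what a number stands for. After each group's mean was subtracted, same-numbered libraries correlated over genes at 0.724, 0.342 and 0.429, all above 0.1, so pairing by number was accepted on the data alone. Libraries numbered 2 and 3 also correlated when crossed, at 0.401 and 0.249, so this check did not tell number 2 from number 3. edgeR's common biological coefficient of variation was 0.211 in the fit with the block and 0.337 in the other.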

Additional observations from a re-analysis of the deposited data

How the results depend on the processing

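Of 196 alternative values of the 9 members that passed the filter, 177 kept their direction and their side of the threshold, 9 newly passed it and 10 changed sign. Arg1 was not among these values. The edgeR count of called genes, 0, became 8 with DESeq2 and the replicate block. Leaving out libraries gave counts of 0 to 5458. Without both libraries of replicate 1 and with the block kept, 12 genes and 0 members were called, but Chil3 had no value in that fit. Without replicate 2 the count was 9, with Chil3 and Msr1 (edgeR adjusted p = 0.00754 for both). Without replicate 3 it was 5458 of 14453 (37.8%), with Adgre1 (edgeR adjusted p = 0.00854), Mrc1 (0.0169) and Chil3 (8.09e-09). Such fits with the block have 1 residual degree of freedom. edgeR with the block and no filter, chosen after seeing the data, called 187 of 26971 genes (0.693%), with Chil3 (edgeR adjusted p = 9.36e-10), Msr1 (7.42e-05), Lyz2 (6.85e-04) and Arg1 (0.00279). The block in edgeR with the filter changed no member's call. The cause of these changes was not tested.

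Over single left-out libraries and left-out replicate numbers, the log2 fold change of Chil3 ran from -1.81 to 6.40, of Lyz2 from -0.19 to 2.63, of Ms4a7 from -0.19 to 0.51 and of Csf1r from -0.29 to 0.63. The range of Chil3 lacks the fit with replicate 1 left out of both groups, where it had no value. Csf1r was also at -0.15 without replicate 1 and without the block. Genes that differed between replicate numbers, 1144, became 3231 with no filter and 1863 with DESeq2's likelihood-ratio test, and ran from 854 to 7862 with a library left out (7862 without congested replicate 3, 5234 without IRI replicate 3). With total counts and no factors, which shift the median log2 fold change of all genes to 0.095, 5 members were higher within every number in place of 3, and 1 had non-overlapping groups in place of 0. Arg1, Ms4a7, Mrc1 and Adgre1 rest on at most 62 reads per library, which limits what could be seen of them.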
